A study of Mus musculus with 84 samples.

Results

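The 37 genes described here are macrophage and pan-leukocyte genes, and their promoters were followed through 84 peak lists of 4 histone marks from labelled adipocyte nuclei of mouse epididymal fat. The members were given as a list of gene names, without a threshold on any value, but the list was chosen with earlier results of these data known. Contrasts of the members with all promoters are therefore descriptions. The members were found by symbol among 21879 genes with a protein-coding start site, and 37 of 37 were matched. A promoter was the stretch within 2000 bp on either side of each start site of the gene in the GRCm38 annotation. It was called marked where at least 1 bp of it lay in a peak, and its covered length was the number of its base pairs inside peaks, with 0 bp where no peak was listed.

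Macrophages and other leukocytes share a set of signalling, cytoskeletal and oxidase genes that most other cells keep silent. The transcription factor PU.1, encoded by Spi1, opens many of these genes in myeloid cells, and macrophages gather in fat as it expands in obesity. H3K4me3 sits at start sites that are active or poised, H3K27ac at active promoters and enhancers, H3K4me1 around enhancers, and H3K27me3 is laid down by Polycomb complexes at genes that are held silent. A promoter that carries H3K4me3 and H3K27me3 together is called bivalent in a single cell, but in a pool of nuclei the same picture arises when different cells carry each mark.

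All mice were AdipoERCre x NuTRAP animals, on a background the labels write as C576BL6 and the study's methods as C57BL/N, that had received tamoxifen and a washout period before any diet began. AdipoERCre is a tamoxifen-inducible Cre recombinase driven by the promoter of the adipocyte gene Adipoq, and NuTRAP is a reporter that puts biotin on the nuclei of cells in which Cre has acted. The 12-week cohort held C (chow, 18 weeks old), H (high-fat diet for 12 weeks, 18 weeks old), CC_s (chow, 26 weeks old) and HC (high-fat diet for 12 weeks and then chow for 8 weeks, 26 weeks old). The 25-week cohort held CC_l (chow, 31 weeks old), HH (high-fat diet for 25 weeks, 31 weeks old), CCC (chow, 39 weeks old) and HHC (high-fat diet for 25 weeks and then chow for 8 weeks, 39 weeks old). H and HH are called obese and HC and HHC weight loss here, and each was set against the chow group of its own age. H3K4me3 had 21 libraries, H3K27me3 20, H3K27ac 21 and H3K4me1 22, with 3 libraries in 20 of the 32 groups of mark and diet and 2 in the other 12.

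Several limits touch every value. The labelling depends on where the Adipoq promoter acts, the nuclei were drawn from snap-frozen whole depots on beads, and nuclei of other cells in the pull-down were not counted. The smallest peak list held 11249 peaks and the largest 46397. The study states a minimum number of reads per sample, and the depth of each library was not given in the sources used here. Each list keeps only the blocks of highest signal in its own library, so a promoter without a listed peak is not shown to lack the mark. The covered length of a marked promoter is a position measure and was compared between libraries, whereas the signal in the lists was not. Covered length also depends on how wide the peaks of a library are, and the median peak width ran from 332 to 2658 bp over the 84 libraries. Of the 12 adipocyte markers that were checked, 9 to 12 were marked by H3K4me3 in each library, 12 of 12 in each library of the 4 chow groups. The libraries below 12 were H replicate 2 (10 markers, 29 members), HC replicate 3 (9 markers, 18 members) and HHC replicate 3 (9 markers, 26 members). HHC replicate 1, with the most members of all, 30, had 12 of 12. The titles and the treatment fields of 4 H3K4me3 libraries name different groups: CC_l replicate 2, HH replicates 2 and 3, and CCC replicate 3. Groups follow the titles here. Since both H3K4me3 libraries of HH are among the 4, H3K4me3 counts and shares over the members are also given with these libraries regrouped or left out. The H3K4me3 values and p-values of single genes, and those of the other gene lists, follow the titles alone. H3K4me3 replicate 3 of H had the fewest peaks of all, 11249, and marked 3 members. In H3K27ac, replicate 3 of CCC marked 2 members and 17.7% of all promoters, the lowest share for that mark. HC replicate 3 had the most members marked of its group in 4 of 4 marks.

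The promoters of 6 members are printed because the H3K4me3 and H3K27me3 results turn on them: 4 whose H3K4me3 covered length was higher with a diet history at an unadjusted exact p under 0.05 and that had H3K27me3 in 0 to 4 libraries, and the 2 members with the most H3K27me3 libraries. Sequences are the 250 bases before the RefSeq start on GRCm38.p6, read 5′ to 3′ on the strand of the gene, in lower case. Capitals mark GAGGAA or AGGAAGT on either strand (TTCCTC and ACTTCCT as reverse complements), the short forms of purine-rich elements bound by PU.1 and related ETS factors. Where the 2 motifs overlap, both are counted.
Ptprc (tyrosine phosphatase CD45, chr1:138175306-138175555, minus strand): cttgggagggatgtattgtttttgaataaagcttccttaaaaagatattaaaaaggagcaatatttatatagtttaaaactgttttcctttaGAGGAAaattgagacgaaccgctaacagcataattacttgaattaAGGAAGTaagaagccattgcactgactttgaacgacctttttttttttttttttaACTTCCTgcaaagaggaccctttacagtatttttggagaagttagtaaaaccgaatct
Arhgap15 (a Rac GTPase-activating protein, chr2:43748574-43748823, plus strand): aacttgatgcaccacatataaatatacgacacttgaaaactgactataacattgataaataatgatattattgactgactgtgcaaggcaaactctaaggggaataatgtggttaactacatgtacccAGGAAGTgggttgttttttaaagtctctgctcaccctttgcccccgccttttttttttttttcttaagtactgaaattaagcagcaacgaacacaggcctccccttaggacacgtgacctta
Lyz2 (lysozyme, chr10:117282273-117282522, minus strand): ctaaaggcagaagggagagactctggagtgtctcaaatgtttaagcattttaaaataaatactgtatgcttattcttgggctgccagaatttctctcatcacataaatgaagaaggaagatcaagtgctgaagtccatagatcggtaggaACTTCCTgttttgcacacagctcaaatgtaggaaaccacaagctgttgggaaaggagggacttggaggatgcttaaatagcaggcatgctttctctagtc
Cd84 (a SLAM family receptor, chr1:171839447-171839696, plus strand): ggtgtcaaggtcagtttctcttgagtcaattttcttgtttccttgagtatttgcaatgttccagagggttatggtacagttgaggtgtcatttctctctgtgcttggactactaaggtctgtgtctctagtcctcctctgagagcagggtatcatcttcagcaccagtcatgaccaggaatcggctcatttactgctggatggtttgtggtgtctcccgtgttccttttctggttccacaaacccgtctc
Irf5 (an interferon regulatory factor, chr6:29526375-29526624, plus strand): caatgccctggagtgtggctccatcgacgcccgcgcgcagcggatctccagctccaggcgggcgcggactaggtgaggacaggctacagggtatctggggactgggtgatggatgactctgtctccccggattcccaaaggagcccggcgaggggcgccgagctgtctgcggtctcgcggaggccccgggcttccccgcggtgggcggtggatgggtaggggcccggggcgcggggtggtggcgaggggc
Coro1a (a leukocyte actin regulator, chr7:126704817-126705066, minus strand): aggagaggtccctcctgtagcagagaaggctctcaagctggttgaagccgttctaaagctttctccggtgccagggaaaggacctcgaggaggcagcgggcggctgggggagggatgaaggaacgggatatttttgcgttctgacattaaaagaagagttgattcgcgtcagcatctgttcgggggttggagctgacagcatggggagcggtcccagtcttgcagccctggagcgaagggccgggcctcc

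RefSeq entries were found for 29 of the 37 members and for 16518 genes in all. GAGGAA was present in 9 of the 29 members (31.0%) and in 22.2% of the 16518 promoters, AGGAAGT in 7 (24.1%) and in 7.53%, and at least one of them in 13 (44.8%) and in 26.3%. Ptprc held 1 GAGGAA and 2 AGGAAGT, whereas Arhgap15 and Lyz2 held 1 AGGAAGT each. Cd84, Irf5 and Coro1a held neither in this window. These are matches of letters and not measured binding sites. The promoters also differed in CpG content. The median over all promoters was 10 CpG in 250 bases and that of the 29 members was 4. Irf8 had 29, Irf5 25, and Coro1a and Lgals3 13 each, against 1 in Lyz2, 3 in Cd84 and 4 in Ptprc and Arhgap15. The 9 members with H3K27me3 in 3 or more libraries had a median of 7 CpG (0 to 29), the 9 with it in 1 or 2 libraries a median of 3 (0 to 7), and the 11 with none a median of 4 (1 to 6), so CpG number did not follow the number of H3K27me3 libraries step by step.

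H3K4me3 lay at more member promoters in the diet-history libraries than in their chow controls. It marked 10, 13 and 13 members in C and 22, 29 and 3 in H. It marked 3, 3 and 6 in CC_s and 6, 7 and 18 in HC. In the 25-week cohort it marked 13 and 13 in CC_l, 27 and 24 in HH, 15 and 10 in CCC, and 30, 26 and 26 in HHC. The 5 libraries of HH and HHC lay above the 4 of CC_l and CCC, whereas H and C overlapped through replicate 3 of H, and HC met CC_s at 6. Averaged over the 4 comparisons, the share of members marked was 26.8 percentage points higher with a diet history, against a pooled SD between libraries of 16.6 and −0.29 points over all promoters. The group means ± SD (n = 3 libraries) were 32.4% ± 4.68 in C, 48.6% ± 36.4 in H, 10.8% ± 4.68 in CC_s, 27.9% ± 18.0 in HC and 73.9% ± 6.24 in HHC. With 2 libraries each they were 35.1% ± 0 in CC_l, 68.9% ± 5.73 in HH and 33.8% ± 9.56 in CCC. With the treatment field as the group the difference was 7.88 percentage points. In a pool of nuclei, more cells of a type and more of the mark per cell cannot be told apart.

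**Figure D1:**
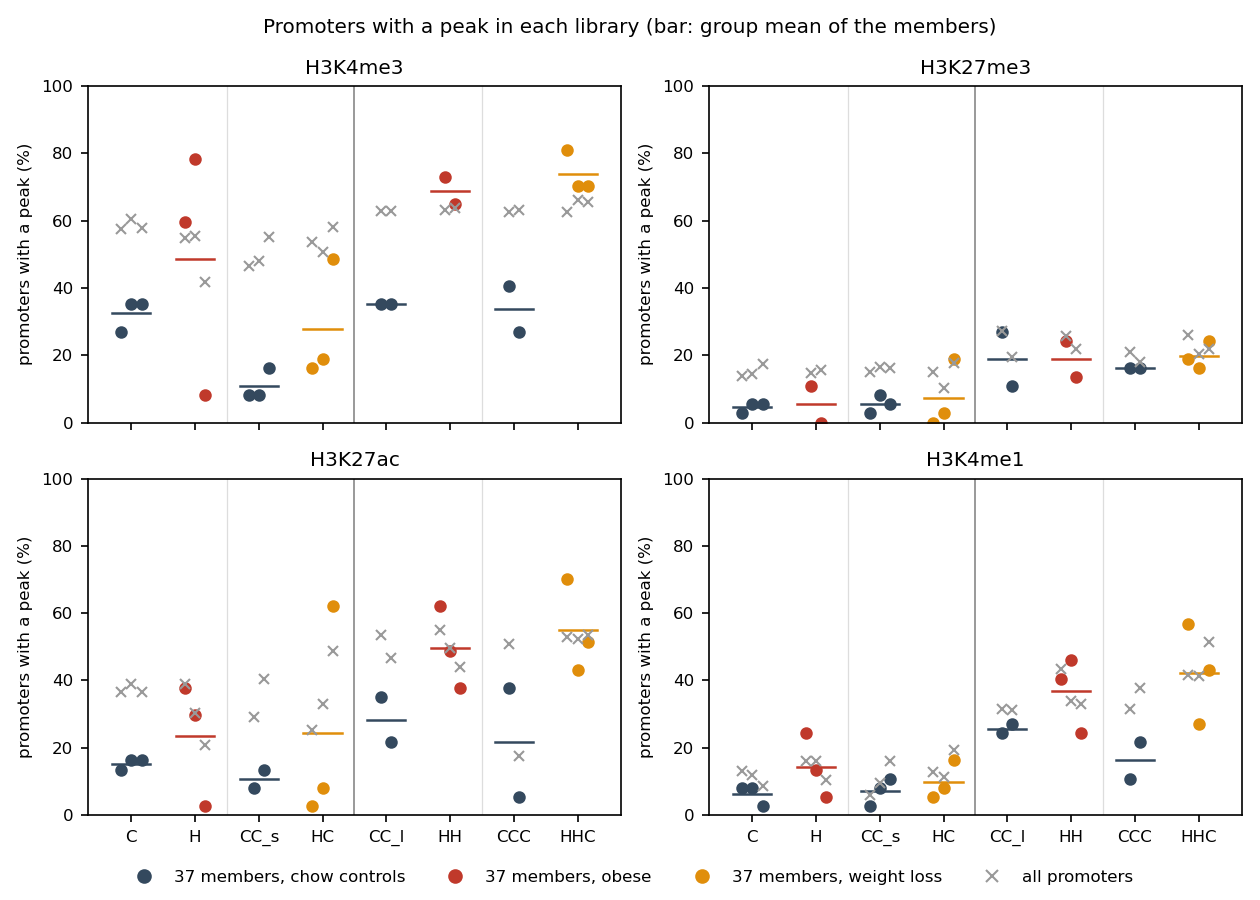
Share of promoters with a peak (vertical axis, percent) in each library of the 8 groups (horizontal axis), 1 panel per mark; coloured points are the 37 members, grey crosses all promoters, and bars the group means of the members. In H3K4me3 the members run from 3 of 37 in the lowest libraries to 30 of 37 in HHC replicate 1.

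Over all libraries, 15 members (40.5%) had no H3K4me3 in any chow library, against 31.6% of all promoters. For 11 of them a peak was listed in at least 1 diet-history library (29.7% of the members, against 4.38% of all promoters). A peak in chow libraries only was listed at 0 members, against 2.46% of all promoters. The scavenger receptor Marco, the secreted phosphoprotein Spp1 and the resident macrophage receptors Cd163 and Timd4 had none in any of the 21 libraries. Vav1, a leukocyte guanine exchange factor, and Lgals3, the galectin-3 gene that many cell types express, had one in all 21. A promoter was called gained in a comparison where every diet-history library and no control library had a peak. H against C gained 0 members (0.00457% of all promoters), HC against CC_s 1, Irf5 (0.32%), HH against CC_l 9 (1.32%) and HHC against CCC 9 (1.38%), 14 distinct members in all. For the 14 and for the alternatives below, the matching share of all promoters was not counted. Between chow groups, CC_s against C gained 0 members (0% of all promoters) and lost 1, Irf5 (1.74%), and CCC against CC_l gained 0 (0.462%) and lost 0 (0.288%). With equal numbers of peaks in each library, 5 members were gained, and with groups from the treatment field 1, Irf5. Without the 4 conflicting libraries the HH comparison could not be made and 10 were gained.

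Across the 4 comparisons the covered length was tested with a two-sided exact permutation test, in which labels were permuted within each comparison. Of the 37 members, 28 had a peak in at least 3 H3K4me3 libraries and entered the test. The other 9 were Cx3cr1, Ccr2, Cybb, Clec4d, Msr1, Marco, Spp1, Cd163 and Timd4. Adgre1, Lyz2, Mrc1, Clec7a, Folr2 and Cd86 entered only through diet-history libraries and could lie only on the higher side, so the counts are descriptions. The exact p-values of these members are descriptions too. At an unadjusted exact p under 0.05, 14 members were higher (4.31% of 14609 promoters) and 0 lower (6.66%). None passed the Benjamini-Hochberg adjustment over all promoters in this permutation test, and 0 of the 14609 promoters did. The median difference of the 28 was 887 bp, against −62.1 bp over all promoters, and 25 of 28 lay above 0, against 41.7% of all. Obese groups alone gave 0 members higher at that unadjusted level (0.0137%), and weight-loss groups alone 5 (3.36%), namely Ptprc, Laptm5, Arhgap15, Irf8 and Irf5. The median difference of the 28 was 959 bp in obese and 894 bp in weight-loss groups, against −215 and 91.4 bp over all promoters. Of the 28, 25 lay above 0 in obese and 26 in weight-loss groups, against 27.4% and 60.1% of all promoters. In the obese groups the smallest exact p at any promoter was 0.0167, so these counts do not tell the phases apart. The count of 14 became 5 with equal numbers of peaks in each library, 9 with only the upper 50% of peaks by total signal, 3 without the 4 conflicting libraries (Ptprc, Ncf1 and Adgre1) and 1 with groups from the treatment field (Lilrb4a). A fit that paired libraries by replicate number gave 5 (Ptprc, Laptm5, Ncf1, Adgre1 and Csf1r).

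**Figure D2:**
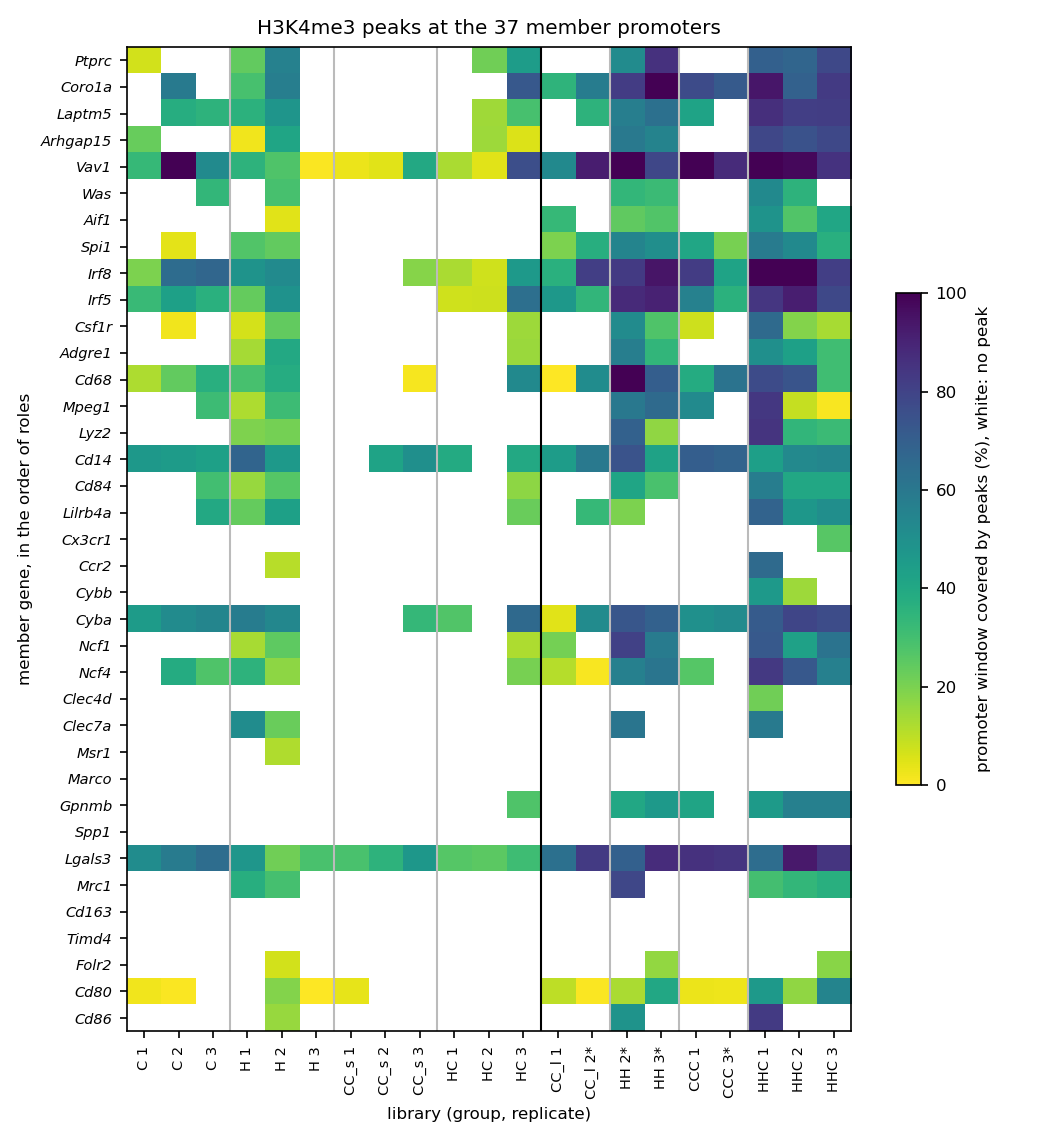
Share of the promoter window covered by H3K4me3 peaks (colour, percent; white where no peak is listed) at each of the 37 member promoters (rows, in the order of roles) in each of the 21 libraries (columns, by group and replicate; an asterisk marks the 4 libraries with conflicting labels). Vav1 and Lgals3 are filled throughout, Marco, Spp1, Cd163 and Timd4 are empty throughout, and 24 to 30 members are filled in each HH and HHC library.

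Among the pan-leukocyte genes, Ptprc had H3K4me3 in 1 of 10 chow libraries and in 9 of 11 with a diet history. In the 12-week cohort it covered 271, 0 and 0 bp in C, 974, 2259 and 0 bp in H, 0 bp in each CC_s library and 0, 868 and 1803 bp in HC. In the 25-week cohort it covered 0 bp in each CC_l and CCC library, 2098 and 3462 bp in HH and 2804, 2724 and 3168 bp in HHC. The 25-week groups did not overlap, whereas in both 12-week comparisons a diet-history library stood at 0 bp. The mean difference was 1889 bp (exact p = 0.000667, adjusted p = 0.234). Arhgap15 had the same counts, 1 of 10 and 9 of 11. It covered 946, 0 and 0 bp in C, 87, 1675 and 0 bp in H, 0 bp in CC_s and 0, 587 and 207 bp in HC. It covered 0 bp in CC_l and CCC, 2409 and 2233 bp in HH and 3185, 3020 and 3167 bp in HHC. The mean difference was 1495 bp (exact p = 0.00383, adjusted p = 0.234). Neither 25-week comparison overlapped at this gene.

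Laptm5, a lysosomal membrane protein of leukocytes, had H3K4me3 in 4 of 10 chow and 9 of 11 diet-history libraries (mean difference 1230 bp, exact p = 0.00508, adjusted p = 0.249). Its 3 HHC libraries covered 3461, 3263 and 3272 bp and its 2 CCC libraries 1674 and 0 bp. Coro1a had 5 of 10 and 8 of 11 and did not reach 0.05 (1205 bp, exact p = 0.0542). Was, which links surface receptors to actin, covered 1346 bp in 1 C library, 1160 bp in 1 H library, 1359 and 1269 bp in HH, 2107, 1413 and 0 bp in HHC, and 0 bp elsewhere. Aif1, the calcium-binding protein Iba1, covered 2384 bp in 1 CC_l library, 329 bp in 1 H library, 1759 and 1939 bp in HH, 3497, 1950 and 2934 bp in HHC, and 0 bp elsewhere. HHC thus stood apart from CCC at Aif1, and HH from CC_l at Was. Neither gene reached 0.05 across the 4 comparisons (exact p = 0.0767 for Was and 0.0667 for Aif1). Vav1 was marked everywhere, over 25 to 4028 bp, with a mean difference of −79.2 bp (exact p = 0.86).

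Among the lineage factors, Spi1 had H3K4me3 in 5 of 10 chow and 7 of 11 diet-history libraries, with a mean difference of 589 bp (exact p = 0.01, adjusted p = 0.28). In HH it covered 2198 and 2028 bp against 783 and 1495 bp in CC_l, and in HHC 2339, 2104 and 1478 bp against 1632 and 814 bp in CCC. Csf1r, the receptor for macrophage colony-stimulating factor, covered 99 bp in 1 C library and 320 bp in 1 CCC library and 0 bp in the other chow libraries. It covered 271, 1031 and 0 bp in H, 0, 0 and 627 bp in HC, 2214 and 1185 bp in HH and 2803, 792 and 557 bp in HHC. All 5 HH and HHC values were above those of the 25-week chow groups, and the mean difference was 883 bp (exact p = 0.0075, adjusted p = 0.271). Irf8, which directs monocyte and dendritic cell development, was marked in 8 of 10 chow and 10 of 11 diet-history libraries (945 bp, exact p = 0.164).

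Irf5, a factor that drives inflammatory cytokine genes in macrophages, was marked by H3K4me3 in 7 of 10 chow and 10 of 11 diet-history libraries. It covered 2133, 2875 and 2438 bp in C and 1581, 3259 and 0 bp in H, which overlap. It covered 0 bp in all 3 CC_s libraries and 490, 516 and 4216 bp in HC, and so was gained there while CC_s had lost it relative to C. It covered 3107 and 2276 bp in CC_l, 5856 and 6009 bp in HH, 3733 and 2399 bp in CCC and 5608, 6096 and 5207 bp in HHC. Both 25-week comparisons were without overlap, in a window of 6658 bp that joins 3 start sites. The mean difference over the 4 comparisons was 1671 bp (exact p = 0.0198, adjusted p = 0.332), with −869 bp in H against C.

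Among the surface and granule proteins, Adgre1, the F4/80 antigen of mouse macrophages, had H3K4me3 in 0 of 10 chow and 8 of 11 diet-history libraries. It covered 541, 1593 and 0 bp in H, 0, 0 and 601 bp in HC, 2299 and 1376 bp in HH and 2013, 1731 and 1231 bp in HHC (1102 bp, exact p = 0.00167, adjusted p = 0.234). Lyz2 likewise had 0 of 10 chow libraries and 7 of 11 others. It covered 774, 833 and 0 bp in H, 0 bp in HC, 2761 and 672 bp in HH and 3396, 1367 and 1273 bp in HHC (1066 bp, exact p = 0.00333, adjusted p = 0.234). Both genes thus lacked a listed peak in every chow library and had one in every HH and HHC library. Adgre1 and Lyz2 could therefore lie only on the higher side of the test. Cd84 covered 1500 bp in 1 C library and 0 bp in the other 9 chow libraries. It covered 756, 1304 and 0 bp in H, 0, 0 and 838 bp in HC, 2028 and 1421 bp in HH and 2845, 1971 and 1980 bp in HHC (1114 bp, exact p = 0.00542, adjusted p = 0.255).

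Mpeg1, the pore-forming perforin-2, covered 1263 bp in 1 C library, 494, 1263 and 0 bp in H, 2400 and 2613 bp in HH, 2081 bp in 1 CCC library, and 3351, 351 and 46 bp in HHC (exact p = 0.149). It was without overlap in HH against CC_l only. Lilrb4a, an inhibitory receptor with a near-identical neighbour whose reads may be shared, covered 1601 bp in 1 C library and 1336 bp in 1 CC_l library. It covered 949, 1743 and 0 bp in H, 0, 0 and 918 bp in HC, 797 and 0 bp in HH and 2749, 1900 and 2038 bp in HHC (exact p = 0.0833). HHC was its only comparison without overlap. Cd68, a lysosomal glycoprotein whose window overlaps that of Mpdu1, was marked in 8 of 10 and 8 of 11 libraries. Cd14, the co-receptor for bacterial lipopolysaccharide, was marked in 9 of 10 and 9 of 11, with a mean difference of −247 bp (exact p = 0.446). The chemokine receptors Cx3cr1 and Ccr2 had H3K4me3 in 1 and 2 libraries, each with a diet history.

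Of the NADPH oxidase subunits, the cytosolic Ncf1 and Ncf4 were higher in H3K4me3 at an unadjusted level, the membrane subunit Cyba did not reach 0.05 and the membrane subunit Cybb was not tested. Ncf1 covered 835 bp in 1 CC_l library and 0 bp in the other 9 chow libraries. It covered 517, 988 and 0 bp in H, 0, 0 and 498 bp in HC, 3227 and 2344 bp in HH and 2883, 1715 and 2476 bp in HHC (1348 bp, exact p = 0.00167, adjusted p = 0.234). HH and HHC lay above their controls in every library. Ncf4 was marked in 5 of 10 chow and 8 of 11 diet-history libraries (1125 bp, exact p = 0.0146, adjusted p = 0.31). Cyba, the p22phox subunit that is not limited to phagocytes, was marked in 8 of 10 and 9 of 11 (749 bp, exact p = 0.09). Cybb, the catalytic subunit of the phagocyte oxidase, was marked in 2 HHC libraries alone.

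The lectin and scavenger receptors were little marked. Clec4d had H3K4me3 in 1 library, Msr1 in 1, Clec7a in 4 and Marco in 0, and none of these was a chow library. Among genes of lipid-associated macrophages, Gpnmb covered 1114 bp in 1 HC library, 1631 and 1870 bp in HH, 1698 bp in 1 CCC library and 1849, 2296 and 2291 bp in HHC, and 0 bp elsewhere. Its mean difference was 855 bp (exact p = 0.00833, adjusted p = 0.271). HH did not overlap CC_l, and the lowest HHC library lay above the one marked CCC library. Lgals3 was marked in all libraries with a mean difference of −354 bp (exact p = 0.114). Of the resident macrophage genes, the mannose receptor Mrc1 covered 1495, 1181 and 0 bp in H, 3142 and 0 bp in HH, 1190, 1359 and 1476 bp in HHC, and 0 bp in HC and every chow library (951 bp, exact p = 0.01, adjusted p = 0.28). Mrc1 could thus lie only on the higher side of the test. The folate receptor Folr2, with 2 separate windows, was marked in 3 diet-history libraries. The co-stimulatory genes were Cd80, marked in 7 of 10 and 7 of 11 libraries (1164 bp, exact p = 0.0263, adjusted p = 0.361) over a window shared with Adprh, and Cd86, marked in 3 diet-history libraries.

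Some other gene lists also had members higher at an unadjusted level, and adipocyte markers had lower ones. The 30 other leukocyte genes included 28 that were tested, of which 19 were higher at an unadjusted exact p under 0.05 and 0 lower. Of 10 endothelial markers tested 6 were higher and 0 lower, of 12 lymphocyte markers 3 and 0, of 8 progenitor markers 2 and 1, of 6 mural markers 1 and 0, of 4 neutrophil markers 1 and 2, of 2 mesothelial markers 0 and 0 and of 5 neuronal markers 0 and 0. Of the 12 adipocyte markers 0 were higher and 5 lower in H3K4me3, and 0 were higher and 10 lower in H3K27ac. None of these passed the adjustment in the permutation test. Over all tested promoters 4.31% were higher and 6.66% lower in H3K4me3, and 4.62% and 6.09% in H3K27ac. Median H3K27ac peak width was 477 to 801 bp in H against 1372 to 1765 bp in C, and 672 to 906 bp in HC against 1232 and 1494 bp in CC_s. The 25-week groups overlapped in it. H3K27ac marked 8 to 12 adipocyte markers in each diet-history library and 12 in each chow library. The part of peak width was not tested. Summed over its 11 genes, endothelial H3K4me3 covered 5914 to 17757 bp in C, 0 to 15943 in H, 0 to 3509 in CC_s, 2102 to 14809 in HC, 14875 to 17255 in CC_l, 38280 to 40989 in HH, 15065 to 17019 in CCC and 17655 to 39442 in HHC. The 16 lymphocyte markers covered 2134 to 2622 bp in C, 0 to 1083 in H, 0 to 996 in CC_s, 752 to 4112 in HC, 1165 to 3224 in CC_l, 9045 to 12335 in HH, 1476 to 1563 in CCC and 22361 to 46679 in HHC, with 12 to 16 of them marked in each HHC library. The 37 members covered 12412 to 25070 bp in C, 1233 to 41045 in H, 1582 to 8111 in CC_s, 4210 to 30528 in HC, 19297 to 28707 in CC_l, 63406 to 72825 in HH, 24498 to 35943 in CCC and 65101 to 92338 in HHC. The endothelial marker Vwf, the neutrophil markers S100a9, Mpo, Ly6g and Cxcr2, the progenitor marker Pi16, the mesothelial marker Upk3b, the mural marker Rgs5 and the neuronal markers Snap25 and Rbfox3 had no H3K4me3 in any library. The part of nuclei from other cell types in the member values was not tested.

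H3K27me3, the Polycomb mark, was sparse at these genes. It marked 1, 2 and 2 members in C, 4 and 0 in H, 1, 3 and 2 in CC_s, 0, 1 and 7 in HC, 10 and 4 in CC_l, 9 and 5 in HH, 6 and 6 in CCC and 7, 6 and 9 in HHC. Diet-history and chow libraries overlapped in each comparison except HHC against CCC, where they met at 6. The mean difference in members marked was 1.58 percentage points, against a pooled SD of 6.53 and 0.58 points over all promoters. The 25-week libraries were marked at 4 to 10 members and the 12-week libraries at 0 to 7, and cohort, age and library preparation cannot be told apart. No H3K27me3 was listed in any library at 15 members (40.5%, against 52.3% of all promoters). They were Arhgap15, Was, Aif1, Spi1, Adgre1, Cd68, Cd84, Cx3cr1, Ccr2, Cybb, Cyba, Clec7a, Msr1, Timd4 and Cd86. At 22 members (59.5%) none was listed in any chow library, against 63.9% of all promoters. At 7 (18.9%) it was listed in diet-history libraries only and at 3 (8.11%; Lilrb4a, Clec4d and Cd80) in chow libraries only, against 11.6% and 5.53% of all promoters.

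**Figure D3:**
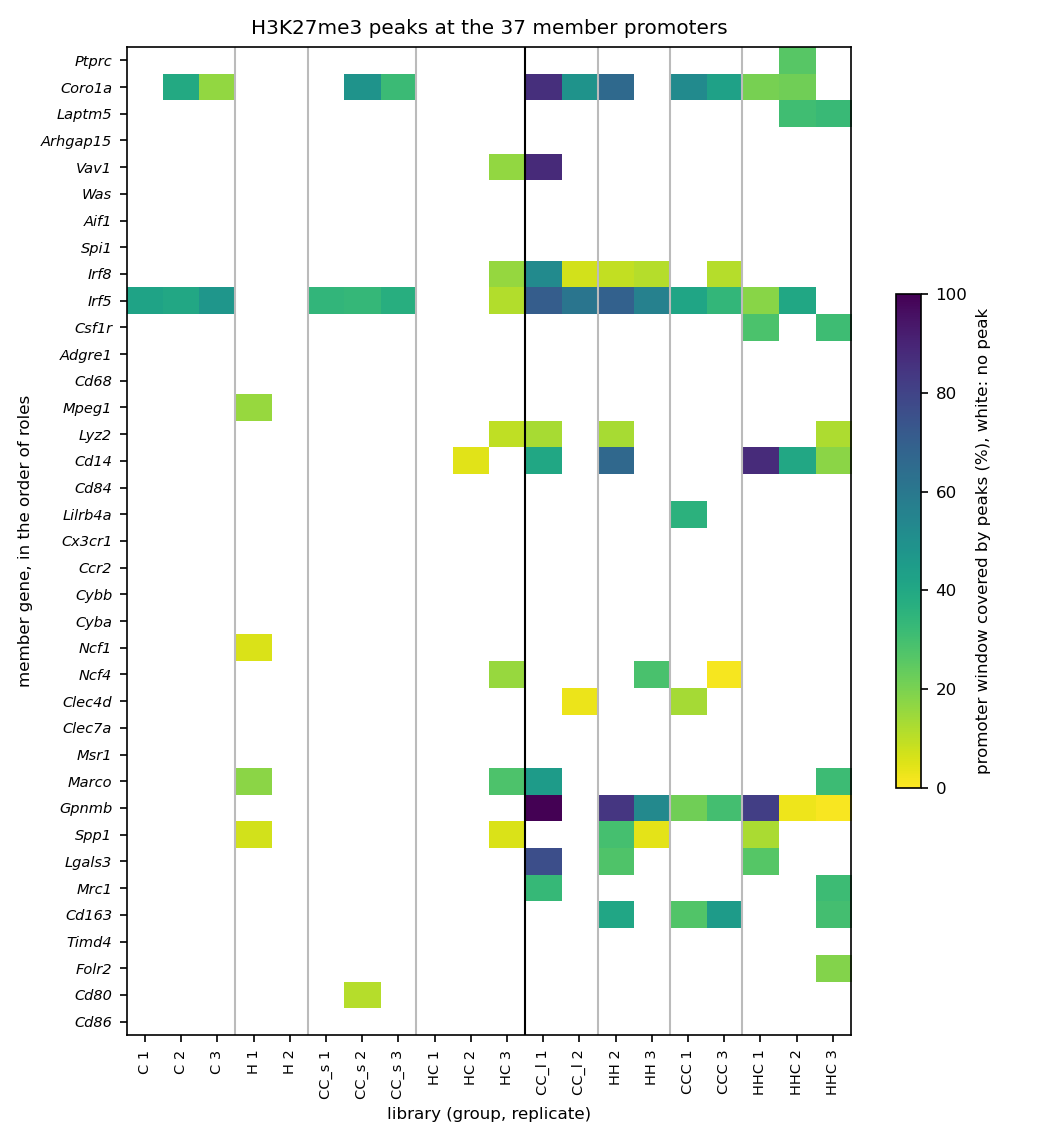
Share of the promoter window covered by H3K27me3 peaks (colour, percent; white where no peak is listed) at each of the 37 member promoters (rows, in the order of roles) in each of the 20 libraries (columns, by group and replicate). Irf5 is filled in 15 libraries and Coro1a in 11, and 15 members are empty throughout.

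Irf5 was the one member whose lower H3K27me3 with a diet history passed the adjustment, and it carried the mark in all 10 chow libraries. It covered 2785, 2654 and 3162 bp in C and 0 bp in both H libraries, and 2279, 2221 and 2479 bp in CC_s and 0, 0 and 764 bp in HC. Neither 12-week comparison overlapped. It covered 4688 and 4065 bp in CC_l and 4602 and 3732 bp in HH, and 2746 and 2238 bp in CCC and 1184, 2702 and 0 bp in HHC, and both 25-week comparisons overlapped. The mean difference was −1586 bp (exact p = 0.000833, adjusted p = 0.0187 over all promoters), made up of −2867 bp in H, −2072 bp in HC, −210 bp in HH and −1197 bp in HHC. The call was lost when peaks were scored as present or absent, when no promoter was filtered out, and in a fit that paired libraries by replicate number. Over whole libraries the H3K27me3 peaks were also narrower in the 12-week diet groups. Their median width was 549 and 592 bp in H against 1242 to 1425 bp in C, and 332 to 914 bp in HC against 1097 to 1175 bp in CC_s. In the 25-week cohort it was 1071 and 1831 bp in HH, 1334 and 1856 bp in CC_l, 1499 to 1532 bp in HHC and 1259 and 1273 bp in CCC. The part of peak width in the differences at Irf5 and Coro1a was not tested.

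Coro1a covered 0, 2224 and 922 bp in C and 0 bp in both H libraries, 0, 2734 and 1795 bp in CC_s and 0 bp in all 3 HC libraries. It covered 4887 and 2741 bp in CC_l, 3720 and 0 bp in HH, 2950 and 2423 bp in CCC and 1154, 1217 and 0 bp in HHC. HHC lay below CCC without overlap, and the other comparisons shared values of 0 bp or overlapped. The mean difference was −1602 bp (exact p = 0.0075, adjusted p = 0.0563), with −1049, −1510, −1954 and −1896 bp in H, HC, HH and HHC, and it passed the adjustment when covered lengths were divided by the library mean, or without replicate 1 of C, replicate 1 of CC_s or replicate 2 of HH. Without replicate 1 of CC_l it no longer reached an unadjusted 0.05. Across the 11 members with H3K27me3 in at least 3 libraries, 2 were lower at an unadjusted exact p under 0.05 (23.4% of 6737 promoters) and 1 was higher (4.78%). After adjustment 1 was lower (11.5%) and 0 higher (0.698%). The members' share thus lay near the background, and the call at Irf5 is one of many over all promoters.

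Spp1 was higher at an unadjusted level, but it entered the test only through diet-history libraries and could lie only on the higher side. It had no H3K27me3 in any chow library and covered 338 and 0 bp in H, 0, 0 and 295 bp in HC, 1495 and 203 bp in HH and 645, 0 and 0 bp in HHC (333 bp, exact p = 0.04, adjusted p = 0.153). Cd14 covered 1615 bp in 1 CC_l library and 0 bp in the other chow libraries, 177 bp in 1 HC library, 2649 bp in 1 HH library and 3506, 1596 and 693 bp in HHC (exact p = 0.2). Gpnmb had the mark in the 25-week cohort alone, over 4063 and 0 bp in CC_l, 3417 and 2152 bp in HH, 884 and 1210 bp in CCC and 3315, 99 and 38 bp in HHC (exact p = 0.717). By the rule of every library against none, H against C lost 1 member, Irf5 (1.61% of all promoters), and HC lost 0 (0.827%), HH 0 (0.946%) and HHC 0 (0.731%). HH gained 1, Spp1 (1.05%), and HHC gained 1, Cd14 (1.37%). The number lost in at least 1 comparison was 4 instead of 1 without replicate 2 of CC_l, 3 without replicate 1 or replicate 3 of CCC, and 2 without replicate 1 of C, CC_s or CC_l, replicate 2 of HH or replicate 3 of HHC. Among other leukocyte genes 13 were tested, with 6 lower, 0 higher and 3 lower after adjustment. At an unadjusted level 3 of 8 endothelial markers were lower and 0 higher, 3 of 6 mesothelial and 1 higher, 4 of 7 neuronal and 0 higher, 2 of 8 lymphocyte and 0 higher, and 1 of 7 mural and 1 higher. Of 5 adipocyte markers 0 were lower and 1 higher, and of 7 neutrophil and 4 progenitor markers 0 were lower and 0 higher.

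**Figure D4:**
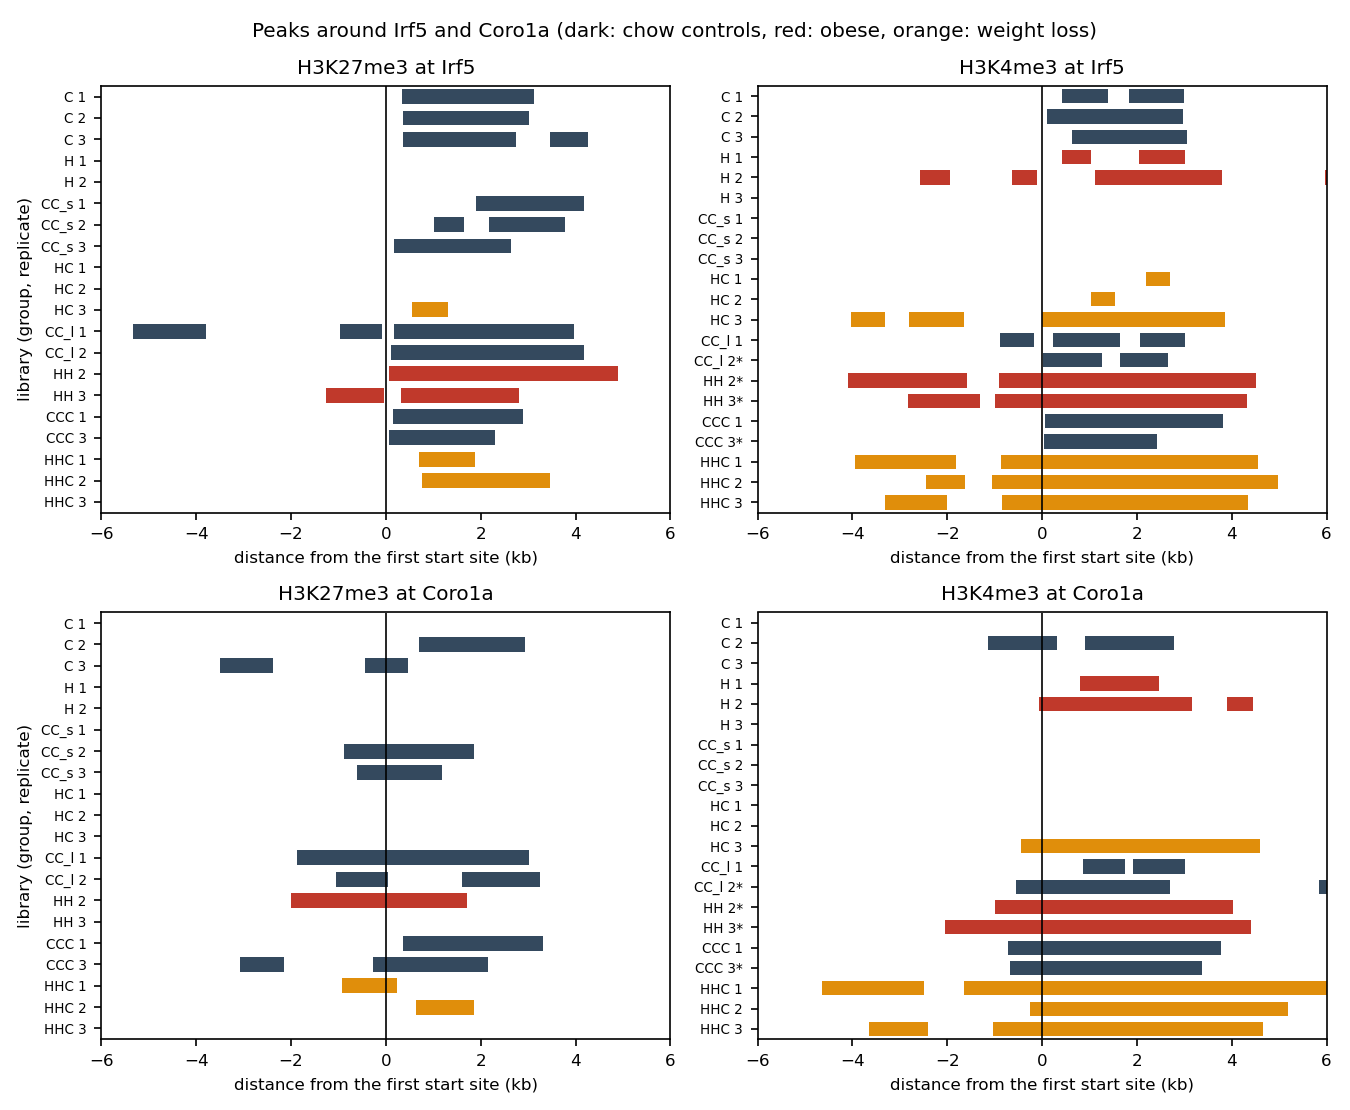
Peaks of H3K4me3 and H3K27me3 around Irf5 and Coro1a in each library (rows) by distance from the first start site (horizontal axis, kb, in the direction of transcription); chow controls are dark, obese groups red and weight-loss groups orange, and an asterisk marks a library with conflicting labels. H3K27me3 peaks at Irf5 are present in 10 of 10 chow libraries and absent from both H libraries.

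Libraries of the same group and replicate number were read side by side, since the marks were assayed on nuclei of the same depots. Equal group and replicate number were taken to mean 1 animal, which the sample titles do not state. This gave 20 animals with H3K4me3 and H3K27me3, 10 of them chow, 4 obese and 6 weight loss. Replicate 3 of H, with H3K4me3 at 3 members, had no H3K27me3 library and is not among them. The obese set joins H (22 and 29 members with H3K4me3) and HH (27 and 24). The weight-loss set joins HC (6, 7 and 18) and HHC (30, 26 and 26), so the shares depend on which libraries were available. In chow animals 21.6% of member promoters had H3K4me3 alone, 5.14% both marks, 4.86% H3K27me3 alone and 68.4% neither. In obese animals the shares were 60.1%, 8.78%, 3.38% and 27.7%, and in weight-loss animals 40.5%, 10.4%, 3.15% and 45.9%. Over all promoters H3K4me3 alone was 51.2%, 49.9% and 50.6% in the 3 sets of animals, so the members' share lay below that of all promoters in chow and weight-loss animals and above it in obese animals. Both marks were at 6.5%, 9.36% and 8.78% of all promoters, and H3K27me3 alone at 11.4%, 10.1% and 9.78%, so the share with both marks was lowest in chow animals for the members and for all promoters alike. These shares follow the titles. Without the animals whose H3K4me3 labels conflict, an alternative added after seeing the data, 8 chow, 2 obese and 6 weight-loss animals remained, with H3K4me3 alone at 21.3%, 66.2% and 40.5% of member promoters and both marks at 4.39%, 2.70% and 10.4%. The obese animals left were replicates 1 and 2 of H.

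The members that gained H3K4me3 lacked chow H3K27me3 about as often as promoters in general. Of the 14 gained members, 9 had no H3K27me3 in any chow library, as had 22 of all 37 members (59.5%) and 63.9% of all promoters. Of the 14, 5 had none in any library, and 5 had some in chow libraries (Irf5, Lyz2, Lilrb4a, Gpnmb and Mrc1). In diet-history animals these 14 had H3K4me3 in 104 pairs of gene and animal, and H3K27me3 was also listed in 18 of them (17.3%). In chow animals the numbers were 20 pairs and 8 with both (40%), and 7 of these 8 were Irf5. The rule for a gain itself leaves few chow pairs. At the 19 members neither gained nor at an unadjusted exact p under 0.05 in H3K4me3, 17.3% of the pairs in diet-history animals and 18.97% of those in chow animals had both. Irf5 had both marks in 7 of 10 chow animals and H3K27me3 alone in 3, both in 2 of 4 obese and 3 of 6 weight-loss animals, and H3K4me3 alone in the other 2 and 3. Coro1a had both in 5 of 10 chow, 1 of 4 obese and 2 of 6 weight-loss animals. Gpnmb had both in 1 of 10, 2 of 4 and 3 of 6, although 2 of its 3 HHC libraries had only 99 and 38 bp of H3K27me3. Whether the 2 marks lay on the same nuclei was not tested.

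H3K27ac, the mark of active promoters, marked 5, 6 and 6 members in C, 14, 11 and 1 in H, 3 and 5 in CC_s, 1, 3 and 23 in HC, 13 and 8 in CC_l, 23, 18 and 14 in HH, 14 and 2 in CCC and 26, 16 and 19 in HHC. HH lay above CC_l and HHC above CCC in every library, whereas the 12-week groups overlapped. The mean difference was 19.03 percentage points, against a pooled SD of 17.9. Over all promoters the mean difference was 2.95 points, made up of −7.38 in H, 0.98 in HC, −0.45 in HH and 18.7 in HHC. At 14 members (37.8%) it was listed in diet-history libraries only and at 0 in chow libraries only, against 8.85% and 1.94% of all promoters. Gained members were 0 in H (0.146% of all promoters), 0 in HC (0.297%), Csf1r in HH (0.448%) and Laptm5 and Aif1 in HHC (2.32%), and H lost Vav1 (1.94%). The 3 gained members became 12 without replicate 1 of CCC, 9 without replicate 3 of H, 7 without replicate 2 of HHC, 6 without replicate 1 of CC_l or replicate 3 of HH, 5 without replicate 2 of CC_l, and 1 with equal numbers of peaks.

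Of 25 members tested for H3K27ac, 8 were higher at an unadjusted exact p under 0.05 (4.62% of 12658 promoters) and 0 lower (6.09%), and 0 passed the adjustment in this permutation test. Ptprc, Laptm5, Arhgap15, Adgre1, Cd84, Lilrb4a, Gpnmb and Mrc1 entered only through diet-history libraries and could lie only on the higher side, so these counts are descriptions. The median difference of the 25 was 728 bp, against 13.1 bp over all promoters. The 8 higher members were Coro1a (1758 bp, exact p = 0.0132), Irf5 (1670 bp, exact p = 0.007), Laptm5, Aif1, Spi1, Cd68, Mpeg1 and Cyba (775 to 1320 bp, exact p = 0.007 to 0.044). Irf5 and Coro1a thus had more H3K27ac and less H3K27me3 covered length, and both are differences averaged over the 4 comparisons. Irf5 covered 0 bp of H3K27ac in all C and CC_s libraries, 0 to 1164 bp in H and 0 to 1791 bp in HC. It covered 0 to 1565 bp in CC_l and 2399 to 4713 bp in HH, and 0 to 2757 bp in CCC and 2775 to 6343 bp in HHC, whose lowest library lay just above the highest of CCC. Obese groups alone gave 1 member higher, Coro1a (0.6%), and weight-loss groups alone 0 (1.68%). The median difference of the 25 was 565 bp in obese and 815 bp in weight-loss groups, against −364 and 387 bp over all promoters. The count of 8 was 0 with equal numbers of peaks in each library, 4 with the upper 50% of peaks, 5 with a window of 500 bp or with peaks as present or absent, and 5 without replicate 3 of HC, replicate 2 of CC_l or replicate 3 of CCC. It was 2 in a fit that paired libraries by replicate number. H3K27ac was listed in no library at Cybb, Clec4d, Msr1, Marco, Cd163 and Timd4.

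H3K4me1 marked 3, 3 and 1 members in C, 9, 5 and 2 in H, 1, 3 and 4 in CC_s, 2, 3 and 6 in HC, 9 and 10 in CC_l, 15, 17 and 9 in HH, 4 and 8 in CCC and 21, 10 and 16 in HHC. HHC alone lay above its controls in every library. The mean difference was 12.0 percentage points, against a pooled SD of 8.68, and over all promoters it was 5.66 points, higher in each of the 4 comparisons. At 15 members (40.5%) the mark was listed in diet-history libraries only, against 18.4% of all promoters. Gained members were 0 in H (0.59% of all promoters), 0 in HC (0.215%), Ncf1 in HH (1.99%) and Coro1a, Csf1r and Ncf1 in HHC (3.98%), while HH lost Laptm5 (0.704%). Without replicate 2 of HHC 8 members were gained, and without replicate 3 of HH 7. Of 20 members tested, 4 were higher at an unadjusted exact p under 0.05 (11.3% of 11256 promoters) and 1 lower (4.3%), and 0 passed the adjustment in this permutation test. The 4 were Irf8 (1620 bp, exact p = 0.00873), Irf5 (1206 bp, exact p = 0.005), Ncf1 (1132 bp, exact p = 0.015) and Ncf4 (883 bp, exact p = 0.033). Of these, Ncf1 had no H3K4me1 in any chow library and could lie only on the higher side. Vav1 was lower by 1165 bp as an absolute length (exact p = 0.0027). The median difference of the members was 309 bp and that of all promoters 202 bp.

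**Figure D5:**
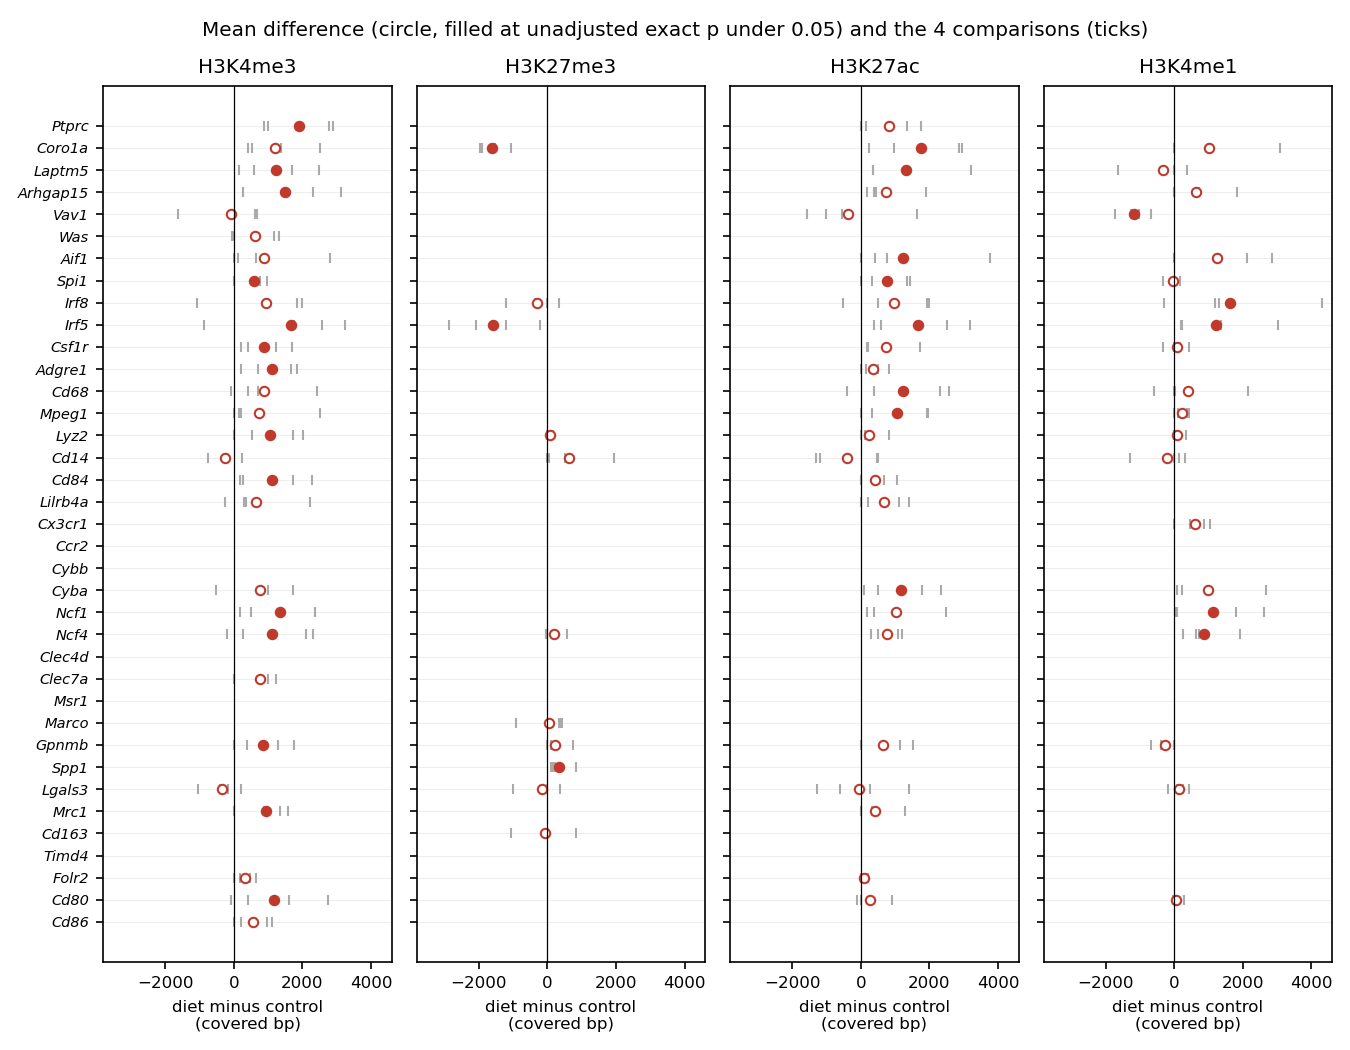
Difference in covered length, diet history minus chow (horizontal axis, bp), for each tested member (rows) in the 4 marks (panels); circles are means over the 4 comparisons, filled at an unadjusted exact p under 0.05, and ticks are the single comparisons. In H3K4me3 25 of 28 members lie above 0, and in H3K27me3 Irf5 and Coro1a lie farthest below it.

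As averages over the 4 comparisons, Irf5 was thus higher at an unadjusted level in H3K4me3, H3K27ac and H3K4me1 and lower in H3K27me3 after adjustment. The differences fell in different comparisons. In H, H3K27me3 differed by −2867 bp and H3K4me3 by −869 bp, and in HH H3K27me3 differed by −210 bp and H3K4me3 by 3241 bp. The H3K4me3 value in H includes replicate 3, which had the fewest peaks, 11249, and 0 bp at Irf5. Median H3K4me3 peak width was 850 to 1115 bp in H and 1439 to 1692 bp in C. It was 1717 and 1758 bp in HH and 1185 and 1635 bp in CC_l. The part of peak width in these differences was not tested. The H3K27me3 call did not hold for presence or absence, without the filter or with libraries paired by replicate number. The 12-week and the 25-week cohort were also compared within the obese and within the weight-loss groups, where few ways to permute labels exist. The smallest exact p at any member was 0.015, at Cd68 and Cd14 in H3K27ac of the obese groups, with an adjusted p of 0.364. No member passed the adjustment, which does not show that the cohorts were alike. Irf5 H3K4me3 in the obese comparisons differed between cohorts by −4110 bp (exact p = 0.0833, adjusted p = 0.191), from −869 bp in H to 3241 bp in HH. Libraries of 1 group came from separate depots according to the labels, which call them biological replicates.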

How the data were processed

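CUT&Tag peak lists of 84 libraries were used as deposited. According to the study's methods and the submitters' processing notes, the authors trimmed reads with Trim Galore 0.6.6, aligned them to GRCm38 with Bowtie2 2.4.4, sorted them with SAMtools 1.13, made coverage with bedtools 2.30 and called peaks per library with SEACR 1.3 (stringent, threshold 0.01). The deposited lists hold position, total signal and highest signal, in whole numbers of unscaled coverage, so signal was used only to rank peaks within a library. Replicates were not pooled.

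Start sites came from the GENCODE annotation of GRCm38 (41467 sites of 21879 genes). Covered length within 2000 bp of a start site was compared between diet and chow by a two-sided exact permutation test within the 4 comparisons, on promoters with a peak in at least 3 libraries, with Benjamini-Hochberg adjustment over all of them and a threshold of 0.05. The smallest p the design allows was 2.5e-05 to 8.33e-05 for the 4 comparisons together and 0.005 to 0.0167 for the obese or weight-loss groups alone. The script was tested on simulated data. Python 3.11.15, numpy 2.4.6, scipy 1.17.1 and matplotlib 3.10.9 were used. The members, gene lists and tests were chosen with earlier results of these data known. All members are named. Values per library follow members called in any mark, or gained or lost in H3K4me3 or H3K27me3; those of Coro1a and Laptm5, and of Spi1 in the 25-week cohort, were added after their values were seen. Groups follow the titles, and 4 H3K4me3 libraries whose treatment field disagrees were regrouped or left out as alternatives. Sequences came from RefSeq, GRCm38.p6. The read depth of each library is unknown, so no counting intervals are given. Clec7a is annotated as a polymorphic pseudogene and was kept.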

Additional observations from a re-analysis of the deposited data

How the results depend on the processing

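The direction of the differences in members marked held in 3 of 4 marks under each alternative tried; in H3K27me3 the difference of 1.58 percentage points was −1.91 with the upper 50% of peaks and −0.45 to 3.60 with 1 library left out, within the spread between libraries. With groups from the treatment field the H3K4me3 difference was 7.88 percentage points and the members gained numbered 1 instead of 14. With equal numbers of peaks in each library, H3K4me3 gained 5 and H3K27ac 1 instead of 3. With at least 500 bp covered, H3K4me1 gained 1 instead of 3. The H3K27me3 calls numbered 1, Irf5, against 0 for presence or absence, 0 with no filter and 2 after division by the library mean. With 1 library left out, H3K27me3 calls ran from 1 to 2, H3K27me3 losses from 1 to 4, H3K27ac gains from 3 to 12 and H3K4me1 gains from 3 to 8. Counts at an unadjusted exact p, added after seeing the data, ran from 13 to 19 in H3K4me3, 1 to 2 in H3K27me3, 5 to 12 in H3K27ac and 3 to 4 in H3K4me1. The causes of these changes were not tested.

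Libraries of equal replicate number did not deviate together: the correlation of their deviations from the group means ran from −0.496 to 0.189 over 36 pairs, with 7 above 0.1. With a replicate block, H3K27me3 calls were 0 instead of 1, and members at an unadjusted exact p under 0.05 numbered 5 in H3K4me3, 1 lower in H3K27me3, 2 in H3K27ac and 5 in H3K4me1. The depth of each library is unknown, and it limits each count of marked promoters.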
